A study of Mus musculus with 6 samples.

Results

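Neurotrophins and their receptors were examined here as 6 genes named by symbol: the ligand genes Bdnf and Ntf3, the receptor genes Ntrk2, Ntrk3 and Ngfr, and Gfra1. Of these 6 genes, 5 had a probeset of their own in the probeset annotation and were measured, out of 16663 genes tested in all. Ntf3, the gene of neurotrophin-3, is not listed in that annotation and was not analysed here. Whether a probeset without a listed gene measures it was not checked. Each of the 5 measured genes had 1 probeset, and all 5 probesets passed the filter on low signals (a mean log2 signal of at least 6). The samples were 6 Affymetrix arrays, hybridised with RNA of the hypothalamus of C57Bl/6J offspring, all female, killed at 21 weeks and kept on standard chow and water. In the CGP group (3 arrays) the mothers had taken the competitive NMDA receptor antagonist CGP 39551 by mouth at 5 mg/kg during pregnancy and on to the end of weaning; the CON group (3 arrays) were control mice of the same age. RNA of 18 mice was pooled in each group, and the study's methods, written for arrays of male mice, describe a single pool of each group hybridised in triplicate. If the female arrays were made likewise, the arrays of a group are repeat hybridisations of one RNA pool. A p-value here reflects the spread from array to array alone, which may be only technical, and mouse-to-mouse spread was not measured.

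Neurotrophins are small secreted growth factors that are made as longer precursors and cleaved to the mature form. Mature BDNF signals mainly through TrkB, the receptor tyrosine kinase encoded by Ntrk2, and neurotrophin-3 through TrkC, encoded by Ntrk3, while p75NTR, encoded by Ngfr, binds all mature neurotrophins and, with sortilin, their precursors. Gfra1 encodes GFRα1, which is not a neurotrophin receptor: it is the membrane-anchored co-receptor through which GDNF activates the Ret kinase. In the hypothalamus BDNF and TrkB are best known for restraining food intake, and NMDA receptor activity is among the signals that raise Bdnf transcription in neurons.

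The comparison asked whether exposure to CGP before weaning left a difference in these genes in the adult hypothalamus. None of the 5 measured genes differed between CGP and CON by the main test (limma, adjusted p under 0.05 over all tested probesets), a threshold that 0.280% of the 18239 tested probesets passed. The 3 genes Bdnf, Ngfr and Gfra1 lay higher in CGP and the 2 kinase receptor genes Ntrk2 and Ntrk3 lower, and the median difference of the 5 was 0.0031 on the log2 scale, beside -0.0031 over all tested probesets. At an unadjusted p under 0.05 there was 1 gene of the 5, Ngfr, at a level that 11.1% of all tested probesets reached. The 95% intervals of all 5 differences lay inside a 1.4-fold change either way (0.49 on the log2 scale), the fold threshold of the study, which only 0.0493% of tested probesets passed together with the adjusted p. A gene's value covers all cells of the tissue block, so that fewer cells of a type and less RNA per cell cannot be told apart. Signals of different probesets depend on their probes, and levels are therefore compared between arrays and not between genes.

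**Figure D1:**
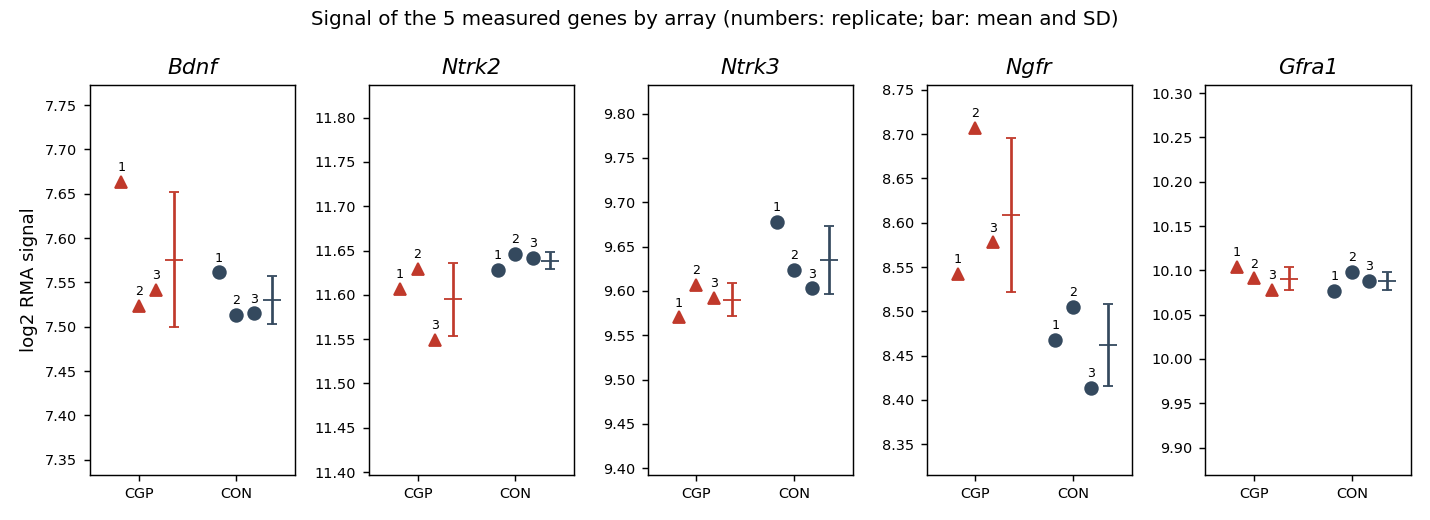
Log2 RMA signal (vertical axis, every panel spanning the same range of log2 units) of the 5 measured genes in the 3 CGP arrays (red triangles) and the 3 CON arrays (dark circles), with replicate numbers and each group's mean and SD as a bar. The arrays of the groups lie apart only for Ngfr, with CGP between 8.54 and 8.71 and CON between 8.41 and 8.50; CGP replicate 1 stands above the other arrays for Bdnf.

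The tissue and the arrays were checked first. One protocol label speaks of adrenal glands where the others speak of hypothalamus. The 14 measured hypothalamic markers had signals of 7.01 to 12.56 (median of gene means 9.66), with Hcrt, Pmch and Oxt at 11.89 to 12.56 on every array. The 6 measured adrenal genes, among them Cyp11b1 and Dbh, lay between 5.86 and 6.77 (median of gene means 6.19), near the signal filter. No 2 arrays were identical, and over the tested probesets they correlated at 0.997 to 0.998 within groups and 0.996 to 0.998 between them. CGP replicate 1 stood apart on the second principal component (-9.67, the other arrays -0.013 to 4.78). Markers of tissue near the hypothalamus and of olfactory tissue differed between the pools. In CGP 2 of 9 tested thalamus genes, 2 of 7 choroid plexus genes and 3 of 10 pituitary genes rose. Of the genes of meninges and fibroblasts 5 of 11 fell, and of the olfactory genes 3 of 5. Of 7 habenula genes none passed, though all 7 lay higher. Pomc, 1 of the 3 pituitary genes that rose, is also a hypothalamus marker. It was the only 1 of 14 tested hypothalamus markers to pass (2.95-fold, limma, adjusted p = 9.37e-06). The part of these tissues in the results below was not tested.

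Bdnf, the gene of brain-derived neurotrophic factor, had signals of 7.66, 7.52 and 7.54 in CGP replicates 1 to 3, against 7.56, 7.51 and 7.52 in CON replicates 1 to 3. These signals lay below the medians of all probesets on the arrays (8.19 to 8.21). The groups overlapped, and CGP replicate 1 alone stood above the CON arrays. The mean was 7.58 ± 0.076 in CGP and 7.53 ± 0.027 in CON (SD, n = 3 arrays each), which put CGP higher by 0.046 with a standard error of 0.046 (limma, adjusted p = 0.752). The 95% interval of the difference ran from -0.060 to 0.15, or 0.96-fold to 1.11-fold. Without CGP replicate 1 the difference was 0.0023. Markers of the ventromedial hypothalamus, a known site of Bdnf expression, were among the genes that did not pass: all 6 were tested, 3 lay higher and 3 lower, and their mean signal was 9.24 to 9.27 in CGP and 9.23 to 9.27 in CON. The list of cortex and hippocampus markers, regions that also express Bdnf, had 6 tested genes of which none passed, with mean signals of 8.76 to 8.81 in CGP and 8.75 to 8.77 in CON.

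The mouse Bdnf gene is transcribed from several alternative first exons that are spliced to 1 shared coding exon. The annotation ties its probeset to 20 transcript records. The value is 1 summary for the gene, and transcripts of different starts cannot be told apart in it. RefSeq (GRCm38.p6) gives 7 start windows for Bdnf, each of 250 bases before to 50 bases after a start. They were searched for the half-site of the cAMP response element, CGTCA, on both strands (TGACG on the other), since CREB bound to such a site is known to drive activity-dependent Bdnf transcription in rat neurons. A match was found in 1 of the 7 Bdnf windows, 35 bases before its start, and in 20.8% of all 32851 promoter windows of this length. No match was found in the 2 windows of Ntf3 or the single windows of Ntrk2, Ngfr and Gfra1, and Ntrk3 has no entry in the promoter table. The stretch is shown beside those of Npas4 and Fos, a pair of activity-regulated genes whose signals rose in CGP. Npas4 passed the test in 6 and Fos in 4 of 14 alternative settings. Fosb and Egr1, which also rose (described below), are not shown. The half-sites are in capitals, and each stretch is printed 5′ to 3′ on its own strand, around the matches nearest to the start. The coordinates are chr2:109692371-109692435 (+ strand) for Bdnf, chr19:4990106-4990180 (- strand) for Npas4 and chr12:85473794-85473858 (+ strand) for Fos, which has a further match upstream of the stretch shown.
Bdnf: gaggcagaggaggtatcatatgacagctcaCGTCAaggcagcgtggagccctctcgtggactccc
Npas4: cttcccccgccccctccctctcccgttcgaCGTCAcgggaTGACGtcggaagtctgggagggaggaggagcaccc
Fos: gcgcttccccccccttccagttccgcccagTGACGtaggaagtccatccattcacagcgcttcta
The letters are a description of the windows, and binding was not measured.

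Ntrk2, which encodes TrkB, had signals of 11.61, 11.63 and 11.55 in CGP, against 11.63, 11.65 and 11.64 in CON. CGP replicates 1 and 3 lay below every CON array, and CGP replicate 2 lay within the CON range. The mean was 11.60 ± 0.041 in CGP and 11.64 ± 0.0094 in CON (SD, n = 3 arrays each), so that the difference was -0.044 with a standard error of 0.037 (limma, adjusted p = 0.697) and a 95% interval of 0.92-fold to 1.03-fold. Without CGP replicate 3, the lowest array, the difference was -0.021. The gene makes a full-length receptor with a kinase domain, found mainly in neurons, and a truncated receptor without it, which is the main form in astrocytes. The single probeset is annotated to 10 transcript records and gives 1 value for the gene. Of 8 tested astrocyte genes, 7 lay lower in CGP and none passed the test. Their mean signal was 10.57 to 10.63 in CGP and 10.67 to 10.68 in CON. The part of astrocytes in the Ntrk2 values was not tested.

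Ntrk3, which encodes TrkC, had signals of 9.57, 9.61 and 9.59 in CGP, against 9.68, 9.62 and 9.60 in CON. CGP replicate 2 lay above CON replicate 3, so that the groups overlapped here too. The mean was 9.59 ± 0.019 in CGP and 9.63 ± 0.039 in CON (SD, n = 3 arrays each), and the difference was -0.045 with a standard error of 0.037 (limma, adjusted p = 0.688) and a 95% interval of 0.91-fold to 1.03-fold. Without CON replicate 1, the highest array, the difference was -0.023. Like Ntrk2, the gene makes forms with and without the kinase domain, and the annotation lists 6 transcript records for its probeset. The differences of both Trk genes were of ordinary size for the array, since 50.8% of tested probesets differed more than Ntrk2 and 49.6% more than Ntrk3.

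Ngfr, which encodes p75NTR, had signals of 8.54, 8.71 and 8.58 in CGP, against 8.47, 8.50 and 8.41 in CON. The lowest CGP array exceeded the highest CON array; the groups lay apart in this way, in either direction, for 17.5% of all tested probesets. The mean was 8.61 ± 0.087 in CGP and 8.46 ± 0.046 in CON (SD, n = 3 arrays each), a difference of 0.15 (standard error 0.051), or 1.11-fold with a 95% interval of 1.02-fold to 1.20-fold. The unadjusted p was 0.0210 and the adjusted p 0.385 in limma, so that the difference did not pass; 5.36% of tested probesets differed more. An exact permutation test over the 6 arrays gave p = 0.1 (two-sided), the smallest value that 3 arrays against 3 allow. The difference was 0.098 without CGP replicate 2, the highest array, and 0.18 without CGP replicate 1.

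In the adult forebrain p75NTR is best known from the cholinergic neurons of the basal forebrain, in the septum and diagonal band in front of the hypothalamus. Of 7 markers of these neurons 6 were tested, 5 lay higher in CGP and 1 lower, and none passed. Their mean signal was 7.74 to 7.80 in CGP and 7.63 to 7.70 in CON. The largest of these differences was that of Slc18a3, the vesicular acetylcholine transporter gene (0.22, adjusted p = 0.118 from limma). Schwann cells also carry p75NTR; of 4 tested Schwann cell markers none passed, and their mean signal was 7.17 to 7.20 in CGP and 7.14 to 7.19 in CON. Among the lists of neighbouring tissue, all 9 thalamus genes (median difference 0.24), all 7 habenula genes (0.20) and all 7 choroid plexus genes (0.21) also lay higher in CGP, and 9 of 11 genes of meninges and fibroblasts lay lower (-0.26). The part of any of these cells and tissues in the Ngfr values was not tested.

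The genes with the pattern most like that of Ngfr over the 6 arrays were taken by the smallest root mean square difference between deviations from each gene's own mean. Among 16662 genes compared these were Smug1, a DNA glycosylase gene (0.011 log2 units), Apol6, an apolipoprotein L gene (0.011), and Krtap12-1, a keratin-associated protein gene (0.020), while the median over all genes was 0.11. Smug1 had signals of 6.84, 6.99 and 6.87 in CGP and 6.78, 6.80 and 6.70 in CON. All 3 had signals between 6.53 and 7.35, near the filter, with CGP replicate 2 highest as for Ngfr. None of the 3 passed the test (adjusted p = 0.410, 0.412 and 0.291 from limma).

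Gfra1, the GDNF co-receptor gene, had signals of 10.10, 10.09 and 10.08 in CGP, against 10.08, 10.10 and 10.09 in CON. The groups covered the same range. The mean was 10.09 ± 0.013 in CGP and 10.09 ± 0.010 in CON (SD, n = 3 arrays each), and the difference was 0.0031 with a standard error of 0.033 (limma, adjusted p = 0.985) and a 95% interval of 0.95-fold to 1.06-fold. Its arrays were among the closest of the whole table: the SD within groups was 0.012, beside a median of 0.057 over all tested probesets, and 99.3% of probesets had a larger one. The corresponding SD was 0.030 for Ntrk2, 0.030 for Ntrk3, 0.057 for Bdnf and 0.069 for Ngfr.

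**Figure D2:**
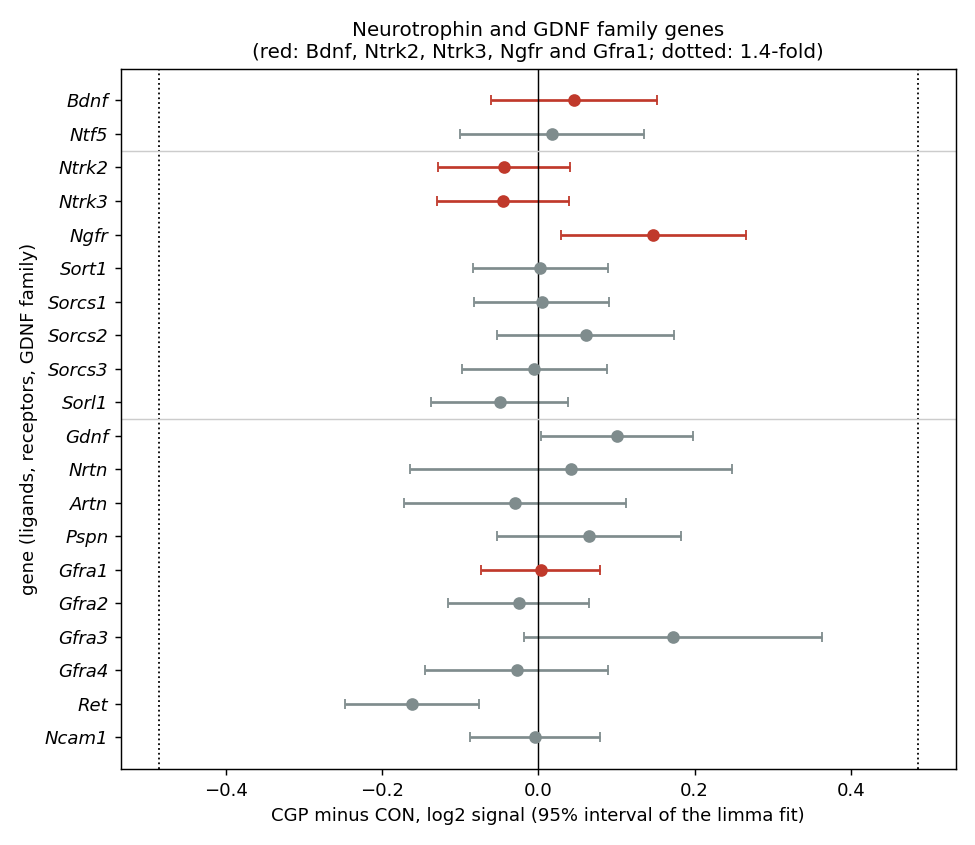
Difference CGP minus CON in log2 signal (horizontal axis) with its 95% interval from limma for the tested ligand genes, neurotrophin receptor genes and GDNF family genes (vertical axis, in that order from the top), with Bdnf, Ntrk2, Ntrk3, Ngfr and Gfra1 in red and a 1.4-fold change as dotted lines. Every interval lies inside the dotted lines; those of Ngfr, Gdnf and Ret do not include 0, and none of the genes passed the adjusted p.

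The other ligands and receptors of both families were 15 genes, and none of them passed the test either (adjusted p = 0.204 to 0.989 from limma), with 2 at an unadjusted p under 0.05 and all 15 intervals inside a 1.4-fold change. Ntf5, the gene of the second TrkB ligand neurotrophin-4/5, differed by 0.018 (95% interval -0.10 to 0.13), with a signal near the filter (6.69 ± 0.089 in CGP and 6.68 ± 0.039 in CON; SD, n = 3 arrays each). Sort1, the gene of sortilin, the partner of p75NTR for precursor neurotrophins, differed by 0.0025 (95% interval -0.084 to 0.089). The related sorting receptor genes differed by 0.0042 (Sorcs1), 0.061 (Sorcs2), -0.0049 (Sorcs3) and -0.049 (Sorl1).

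In the GDNF family the kinase gene Ret, through which GFRα1 signals, had the lowest adjusted p. Its signals were 9.78, 9.76 and 9.73 in CGP, against 9.89, 9.90 and 9.96 in CON. The highest CGP array was below the lowest CON array. The difference of -0.16 (standard error 0.037, 95% interval -0.25 to -0.076) did not pass by the main test (adjusted p = 0.204 from limma), and its adjusted p was 0.0271 in limma with a trended and robust variance, the only alternative of 14 in which it passed. The ligand gene Gdnf had signals of 7.29, 7.40 and 7.36 in CGP, against 7.29, 7.25 and 7.22 in CON. These signals were below the medians of all probesets on the arrays (8.19 to 8.21). The groups lay just apart, and the difference was 0.10 with a standard error of 0.042 (limma, adjusted p = 0.440). Gfra3, the artemin co-receptor gene, differed by 0.17 with a wide spread (95% interval -0.018 to 0.36, adjusted p = 0.498 from limma) and overlapping groups. The remaining family genes differed by 0.042 (Nrtn), -0.029 (Artn), 0.065 (Pspn), -0.025 (Gfra2), -0.028 (Gfra4) and -0.0039 (Ncam1).

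Beyond these families, the pathway was covered by lists of genes that cleave the precursors, carry the Trk signal, bind p75NTR, regulate Bdnf transcription or respond to Trk signalling. With the families, the 8 lists hold 116 genes other than the 6 chosen, of which 99 were tested; 4 rose in CGP, none fell and 95 did not pass, with 57 higher, 42 lower and a median difference of 0.0098. The lists were written with earlier results on some of these genes known, so that the share of 4.04% is not independent evidence beside the 0.280% of all tested probesets. Of 6 genes of precursor cleavage none passed. The largest difference was that of Plat, the tissue plasminogen activator gene, at -0.11 (adjusted p = 0.474 from limma). Furin, the gene of a main convertase of precursor neurotrophins, differed by 0.052. Of 29 Trk adaptor and kinase genes none passed, and the largest difference was that of the Ras gene Nras at -0.24 (adjusted p = 0.198 from limma), which lay apart between the groups at 8.58, 8.51 and 8.45 in CGP and 8.86, 8.71 and 8.70 in CON. Of 10 p75NTR partners none passed, and the largest difference was that of Rtn4r, the Nogo receptor gene, at 0.17 (adjusted p = 0.247 from limma).

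The 4 genes that rose stand upstream or downstream of the receptors in the lists. Among 20 tested regulators of Bdnf transcription 1 rose and none fell: Npas4, an activity-dependent transcription factor known to bind Bdnf promoters, had signals of 8.24, 8.20 and 8.25 in CGP, against 7.77, 7.80 and 7.93 in CON, and was higher by 0.40 in CGP with a standard error of 0.048 (limma, adjusted p = 0.0249). Creb1, the CREB gene, differed by -0.069 (adjusted p = 0.643 from limma). Among 19 genes that Trk signalling induces, 3 rose and none fell, with a median of 0.062. The immediate early transcription factor gene Fos had signals of 8.84, 8.72 and 8.79 in CGP, against 8.51, 8.32 and 8.40 in CON. Fosb, a gene of the same family, had signals of 8.55, 8.51 and 8.49 in CGP, against 8.13, 8.20 and 8.17 in CON. Egr1, a zinc finger transcription factor gene, had signals of 10.49, 10.51 and 10.48 in CGP, against 10.16, 10.18 and 10.18 in CON. The groups lay apart for all 3 genes, which were named because they passed. In either direction they lay apart for 7 of the 19 genes of this list, and for 17.5% of all tested probesets. Fos rose by 0.38 (limma, adjusted p = 0.0484), Fosb by 0.35 (limma, adjusted p = 0.0185) and Egr1 by 0.32 (limma, adjusted p = 0.0165), all under 1.4-fold. Whether the difference of Bdnf was smaller than theirs was not tested. Vgf, a neuropeptide precursor gene that neurotrophins induce, differed by -0.032 (95% interval -0.12 to 0.053), and Arc, an activity-regulated gene of synapses that BDNF induces, by 0.083 (95% interval -0.014 to 0.18). Fos, Fosb and Egr1 respond to many signals besides Trk. The 4 genes passed in 4 to 6 of the 14 alternatives: with any 1 array left out none of them passed (adjusted p = 0.0624 to 0.227 from limma), except Npas4 without CON replicate 3 (adjusted p = 0.0406), and with the variance of each gene taken alone only Egr1 passed.

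**Figure D3:**
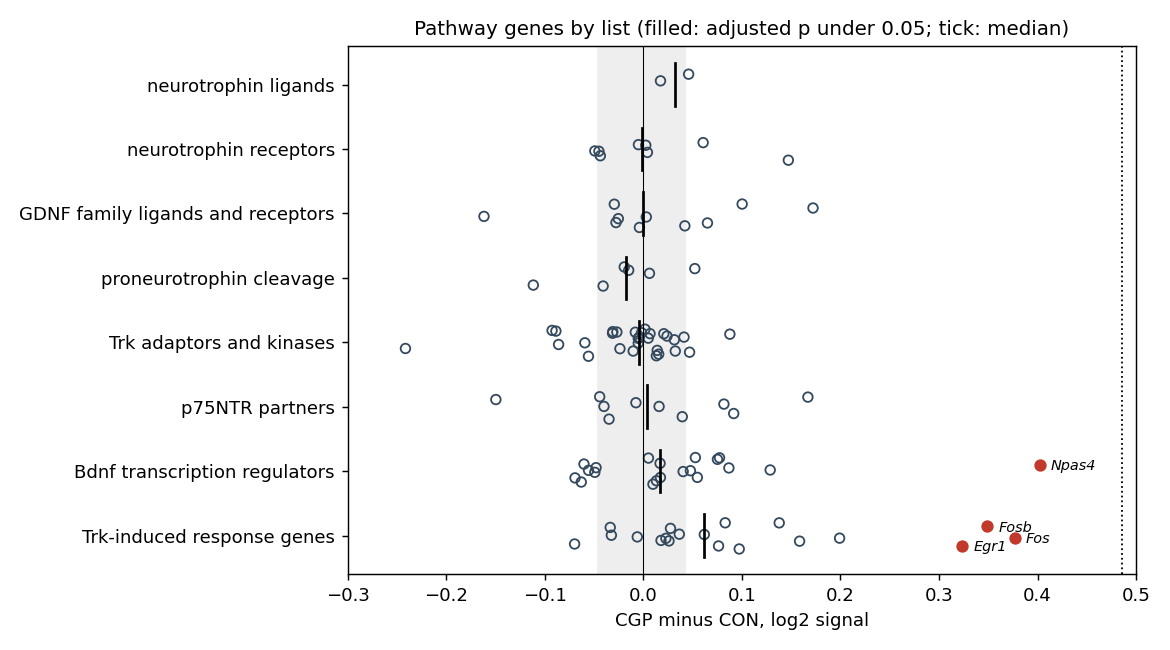
Difference CGP minus CON in log2 signal (horizontal axis) of every tested gene of the 8 pathway lists (vertical axis), with filled points for genes past an adjusted p of 0.05, a tick at each list's median, a grey band from the lower to the upper quartile of all tested probesets (-0.046 to 0.043) and a 1.4-fold rise as a dotted line. Only Npas4, Fos, Fosb and Egr1 are filled, at 0.40, 0.38, 0.35 and 0.32.

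**Figure D4:**
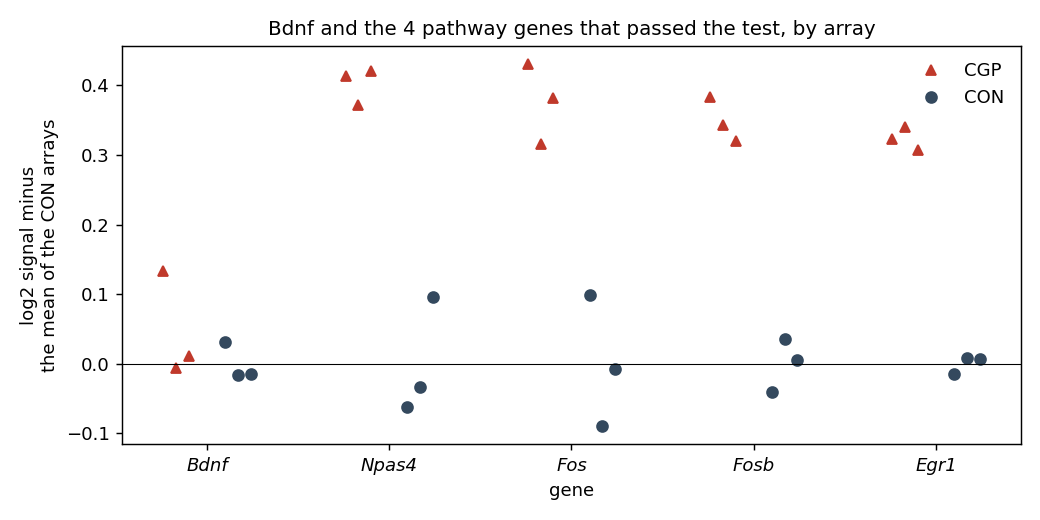
Log2 signal of each array minus the mean of the CON arrays of the gene (vertical axis) for Bdnf and the 4 pathway genes that rose (horizontal axis), with CGP arrays as red triangles and CON arrays as dark circles in the order of their replicate numbers. The CGP arrays of Npas4, Fos, Fosb and Egr1 lie above all CON arrays, and those of Bdnf overlap them except for CGP replicate 1.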

How the data were processed

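The authors deposited log2 values for 28471 probesets of 6 Affymetrix Mouse Gene 1.0 ST arrays, made by RMA (background correction, quantile normalization and a median polish per probeset) in Partek software. RMA pulls dim probesets toward a common background, so that differences near a signal of 6 come out smaller. The values were used as deposited. Gene names came from GEO's platform annotation (18690 with 1 gene, 1163 with several, 8618 unlisted), and 18620 matched the RefSeq gene table of GRCm38.p6 with no change of symbol. The study's methods drop probesets without a unique gene and values under 6; here probesets with 1 gene and a mean of at least 6 over the arrays were tested, 18239 in all. The CGP and CON arrays were fitted with limma 3.58.1 (R 4.3.3, lmFit and eBayes, no covariate), with Benjamini-Hochberg adjustment over all tested probesets. A gene is said to rise or fall at an adjusted p under 0.05, and differences are CGP minus CON in log2 units. A gene stands by its probeset with the highest mean. Intervals are limma's 95% intervals, not adjusted for the number of genes. The number of arrays limits the precision. Named genes are all 6 chosen genes, every family ligand or receptor, and of each other pathway list the genes that passed or else the largest difference, while marker lists are given by counts; Furin, Creb1, Vgf, Arc, Bex1, Mef2a, Slc18a3 and the tissue markers Hcrt, Pmch and Oxt were named after their values were seen. The genes and lists were chosen with earlier results of these data known, and the adrenal genes after the files had been seen. The fit was tested on simulated arrays with known differences. Alternatives changed the test, the filter, the probesets, the variance model, array weights, centring, a replicate block and the arrays used.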

Additional observations from a re-analysis of the deposited data

How the results depend on the processing

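None of the 5 measured genes passed the adjusted p in any of 14 alternatives, and 4 kept their direction in all of them. Gfra1 changed sign without CGP replicate 1 and without CON replicate 1, and ranged from -0.0035 to 0.0097 with 1 array left out. Family genes near 0 also changed sign, over ranges with 1 array left out of -0.015 to 0.068 (Ntf5), -0.017 to 0.025 (Sort1), -0.015 to 0.028 (Sorcs1), -0.032 to 0.012 (Sorcs3), -0.040 to 0.14 (Nrtn), -0.095 to 0.0094 (Artn) and -0.020 to 0.011 (Ncam1); Sort1 was at -0.0022 with array weights, and with arrays centred on their median Sorcs3 was at 0.0074 and Ncam1 at 0.0083. The 4 other pathway genes that passed became 3 with no signal filter (Fos at an adjusted p of 0.0534), 1 with ordinary ANOVA (Egr1), 0 with all probesets of the table, 0 with the replicate block, 0 to 1 with 1 array left out, and 8 with a trended and robust variance, which added Ret, Nras, Bex1 and Mef2a and kept the 4. Of all tested probesets 51 passed, against 6 with ANOVA, 81 with a filter at a mean of 7, 5 with all probesets of the table, 249 with a trended and robust variance, 77 with array weights, 6 with the replicate block and 6 to 10 with 1 array left out. With the 1.4-fold threshold the 9 became 2 with ANOVA and 5 with all probesets, and 5 to 7 with 1 array left out, 5 being the count without CON replicate 2. Leaving an array out shrinks the groups by construction, ANOVA lacks the moderated variance, and for the other settings the cause was not tested. Arrays that share a replicate number were not found to be paired (their deviations from the group means correlated at 0.078, -0.18 and 0.11). With 3 arrays in each group, these correlations cannot exclude a shared batch. The filter at 7 removed Ntf5, Artn, Smug1 and Krtap12-1. No other probeset could be tried, since each of the 5 genes had 1.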
